A study of Mus musculus with 6 samples.

Results

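Broad distal peaks are long stretches of open chromatin away from gene starts. In an ATAC-seq dataset of mouse splenic natural killer (NK) cells, 847 of 51775 consensus peaks had a width of at least 2500 bp and lay more than 5 kb from the nearest annotated transcription start site. They made up 1.64% of all peaks and held 4.28 to 4.50% of the reads in peaks. They were compared with 34820 distal peaks that were narrower than 2500 bp. ATAC-seq uses a transposase that inserts sequencing adapters where DNA is accessible, so the number of reads in a peak measures how open that stretch is.

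The series compared wildtype NK cells with NK cells deficient in Rroid, a long noncoding RNA locus near the Id2 gene, in C57BL6 mice. NK cells were sorted from spleen as CD3- CD5- NK1.1+ NKp46+ cells, with 50000 cells per genotype. There were 3 wildtype and 3 Rroid-deficient libraries. Per the labels, the cells of each genotype were transposed in triplicate, and separate animals are not named, so p-values measure the spread between these libraries, which may be technical. The labels name neither the age of the mice nor the deleted interval. Wildtype libraries are called 1, 2 and 3 and Rroid-deficient libraries 4, 5 and 6, after the ends of the column names.

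NK cells are innate lymphocytes that kill infected or transformed cells and secrete interferon gamma. Their development depends on Id2, which binds E proteins and keeps them from DNA, and on the T-box factors T-bet and Eomes. Most regulatory DNA outside promoters consists of enhancers, which recruit transcription factors and can act on genes over long distances. Runs of enhancer elements that lie close together near genes of cell identity are often called super-enhancers or stretch enhancers, and a consensus peak several nucleosomes wide can hold several such elements. The nearest gene given for a peak is the one whose start site is closest, which need not be a gene that the peak regulates or lies in.

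Values are reads per peak, scaled by the authors for library size and composition. Wildtype libraries held 39847736 to 47939665 reads in peaks. The Rroid-deficient libraries 4 and 6 were the shallowest, with 27572006 and 30762426 reads, against 41167610 in library 5. The median broad distal peak held 880 to 1439 reads per library, which gives a counting error of 2.64 to 3.37%, and the lowest held 38 reads. Across broad distal peaks the Pearson correlation of log2 values was 0.968 to 0.993 within a genotype and 0.931 to 0.959 between genotypes. The 13 peaks of the Rroid locus (mm9 chr12:26000744-26079794) held 4696, 6666 and 5047 reads in the wildtype libraries and 39, 54 and 47 in the Rroid-deficient ones, or 1.09% of the wildtype value. None of these 13 peaks was a broad distal peak, since the widest measured 2457 bp.

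Cell identity was checked at peaks within 1 kb of the start sites of marker genes. Of 8 NK genes, 7 had such a peak, with summed values of 14846 to 17215 in wildtype and 12857 to 15784 in Rroid-deficient libraries. T-cell and progenitor genes, with a peak at 10 of 19, summed to 6831 to 7369 in wildtype and 8353 to 9344 in Rroid-deficient libraries. Among these, Cd3d, Cd3e, Cd4 and Cd8a had no start-site peak. B-cell genes had a start-site peak at 4 of 9, with sums of 384 to 467 against 800.4 to 983, and Pax5, Cd79a, Ms4a1 and Blk were among those with none. Myeloid genes had 1 of 10 (251 to 314 against 246 to 293) and erythroid genes 2 of 7 (1290 to 1406 against 1045 to 1156). No broad distal peak had a B-cell, myeloid or erythroid marker as its nearest gene. Such markers were nearest to only 0.00865, 0.00838 and 0.00546% of narrower distal peaks, weighted to equal value. Hardly any were therefore to be found among broad distal peaks, so their absence says little about purity. The part of the start-site differences in the results was not tested. In such bulk data, a change in the share of cells that carry an open site and a change within every cell cannot be told apart.

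Of the microRNA genes nearest to a broad distal peak, Mir29b-1 had the largest fall, described further on. It lies next to Mir29a, and both mature products carry the same seed, the bases that pair with target RNAs. The sequences are from RefSeq (GRCm38.p6), written 5′ to 3′, with the seed at bases 2 to 8 in capitals.
mmu-miR-29b-3p: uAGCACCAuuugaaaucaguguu
mmu-miR-29a-3p: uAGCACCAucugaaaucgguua
The deposited peaks carry mm9 coordinates, and the sequences of the peaks themselves were not used here.

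The median broad distal peak was 2898 bp wide (interquartile range 2663 to 3319 bp) and the widest 6351 bp. The median distance to the nearest start site was 28.2 kb, with an interquartile range of 13.7 to 60.2 kb. The nearest lay at 5018 bp and the farthest at 1197094 bp. By the authors' annotation 411 lay in introns, 404 between genes and 32 elsewhere, and 323 lay upstream of their nearest start site. The nearest genes numbered 727, and 112 peaks had a nearest gene that does not code for protein. The value ranged from 105 to 86288 normalized reads with a median of 1219 (interquartile range 456 to 2427). Per kb of peak, the median was 398 normalized reads, against 144 for all narrower distal peaks. Just inside the width limit lay peaks near Itgb1, Cdk19 and Ttc7, each 2500 bp wide, and just outside it peaks near Mir1936, Cox4i2 and Klhl6 at 2496, 2497 and 2498 bp. Just inside the distance limit lay peaks of Capzb, Septin9 and Mir7-2 at 5018, 5045 and 5128 bp, and just outside it those of Hspa8, Fosb and E230025N22Rik at 4842, 4878 and 4918 bp.

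In Rroid-deficient cells 172 broad distal peaks were higher and 161 lower than in wildtype, and 514 passed no test. A peak was called at a Benjamini-Hochberg adjusted p under 0.05 in limma, fitted over all 51775 peaks on log2 of the value plus 1, and fold changes are on that scale. The higher peaks were 20.3% of the broad distal peaks, where 13.8% of all peaks were called higher. The lower ones were 19.0%, where 12.1% of all peaks were called lower. Either call was made for 39.3%, against 25.8% of all peaks. Among the other peaks of at least 2500 bp, the 1122 within 5 kb of a start site 157 were higher and 157 lower, a smaller share in each direction. The 3 Rroid-deficient values lay above all wildtype values at 222 broad distal peaks, where this held for 10373 of all 51775 peaks, and below them at 213, where it held for 20.1%. Together these were 51.4% of broad distal peaks, against 40.1% of all peaks.

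Most changes were modest. The median log2 fold change was 0.64 among the higher peaks and -0.43 among the lower ones, and over all 847 it was 0.003, with a range of -1.56 to 2.36. A change of at least 2-fold among called peaks was found at 40 higher peaks and 5 lower ones. Of all peaks, 5.10% were called with a rise of that size and 1.91% with a fall. Of the 172 higher peaks, 119 kept their call in each fit that left out 1 of the 6 libraries, and of the 161 lower peaks 95 did. With loess scaling the split was 236 higher and 141 lower, and with scaling to total reads it was 221 and 140. With library 5 as the only Rroid-deficient library, 108 were higher and 75 lower. In that fit the spread comes from the 3 wildtype libraries, and the lone library is assumed to vary like them, so its calls compare 1 library with wildtype and are no replicate check. The calls made with all 6 libraries held there for 101 of the 172 and 60 of the 161.

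**Figure D1:**
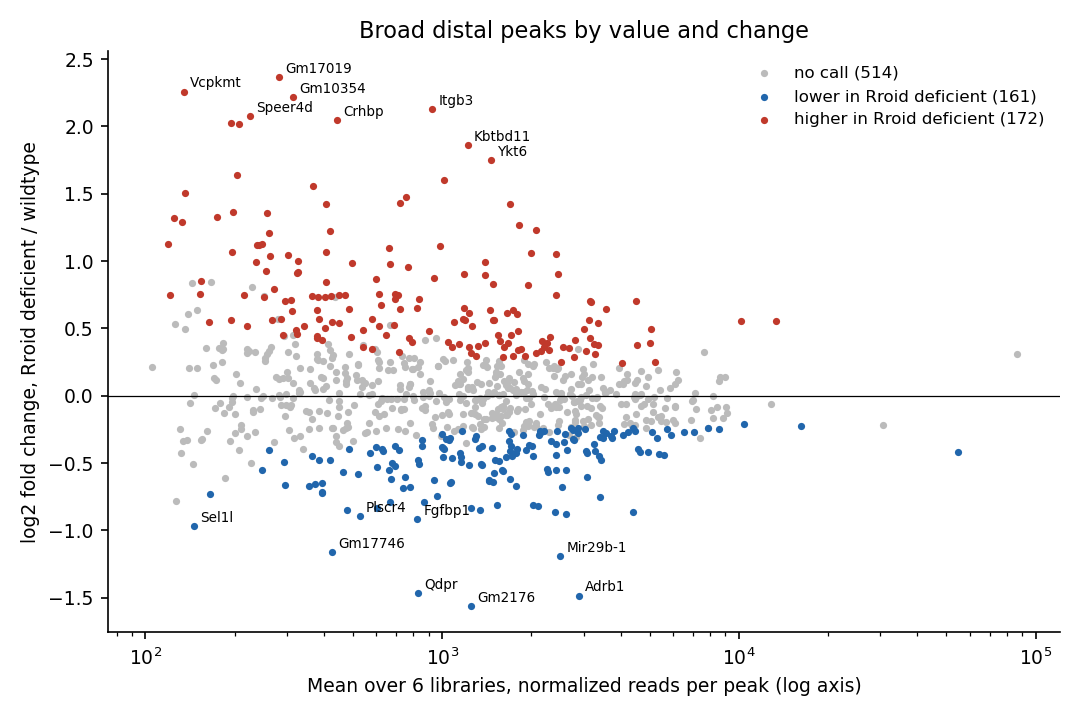
Mean normalized reads per peak over the 6 libraries (log axis) against the log2 fold change of Rroid-deficient over wildtype cells, with 1 point for each of the 847 broad distal peaks. Red points were called higher (172), blue points lower (161) and grey points neither (514), and the labels give the nearest genes of the 8 largest rises and 8 largest falls.

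Values at broad distal peaks follow both width and openness, so narrower distal peaks were weighted to the same distribution of the mean log2 value. Bins were 0.25 log2 units wide, and 843 broad distal peaks had narrower peaks in their bin, 21617 in all. In this comparison 20.4% of broad distal peaks were higher in Rroid-deficient cells, against 12.9% of narrower distal peaks of equal value. Lower calls showed the opposite order, at 18.9% against 26.2%. The total called was 39.3% against 39.1%. The median log2 fold change was 0.005 for broad and -0.13 for narrower distal peaks. The within-genotype SD of log2 values was 0.132 and 0.129, so the noise of both groups was close. The broad and narrower peaks differed in density, with medians of 396 and 863 normalized reads per kb. With library 5 as the only Rroid-deficient library, higher calls were 12.8% against 9.07% and lower calls 8.66% against 10.0%. No test was run on these differences, since peaks of the same libraries are not replicates.

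When narrower peaks were matched on normalized reads per kb instead of per peak, the lower calls no longer separated, at 19.0% and 20.4%, and higher calls were 20.3% and 14.4%. Narrower peaks then had a median of 382 normalized reads against 1219 for broad ones, so fewer reads stood behind each of them. Matching on the wildtype mean alone gave 20.4% and 9.16% for higher and 18.9% and 30.8% for lower calls. Height was then set by only the wildtype side of the contrast, so this wider gap cannot be read as a larger difference. The median log2 deviation of broad distal peaks, less that of narrower peaks of equal value, was 0.160, 0.082 and 0.147 in Rroid-deficient libraries 4, 5 and 6. In wildtype libraries 1, 2 and 3 it was 0.033, -0.016 and -0.015, below all Rroid-deficient libraries. Deviations were taken from the mean of these same wildtype libraries. The closeness of wildtype to that mean is therefore partly built in and is no independent measure of spread.

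The order held in all 6 ranges of peak value for higher calls. Among broad distal peaks with fewer than 256 normalized reads, 30.9% of 97 were higher and 3.09% lower. Of 25086 narrower distal peaks in that range, 3516 (14.0%) were higher and 2056 (8.20%) lower. Heights are not equal there, since broad distal peaks start at 105 normalized reads and narrower ones at 11.1. Between 1024 and 2048 reads, the shares were 19.1% higher and 21.9% lower of 215, against 13.4% and 29.8% of 1623. At 4096 reads or more, 7.61% of 92 were higher and 21.7% lower, against 3.36% and 27.7% of 119. Higher calls thus became rarer with rising value in broad distal peaks. Low sites may have been listed as broad through the libraries where they are high, and the part of this in the pattern was not tested.

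**Figure D2:**
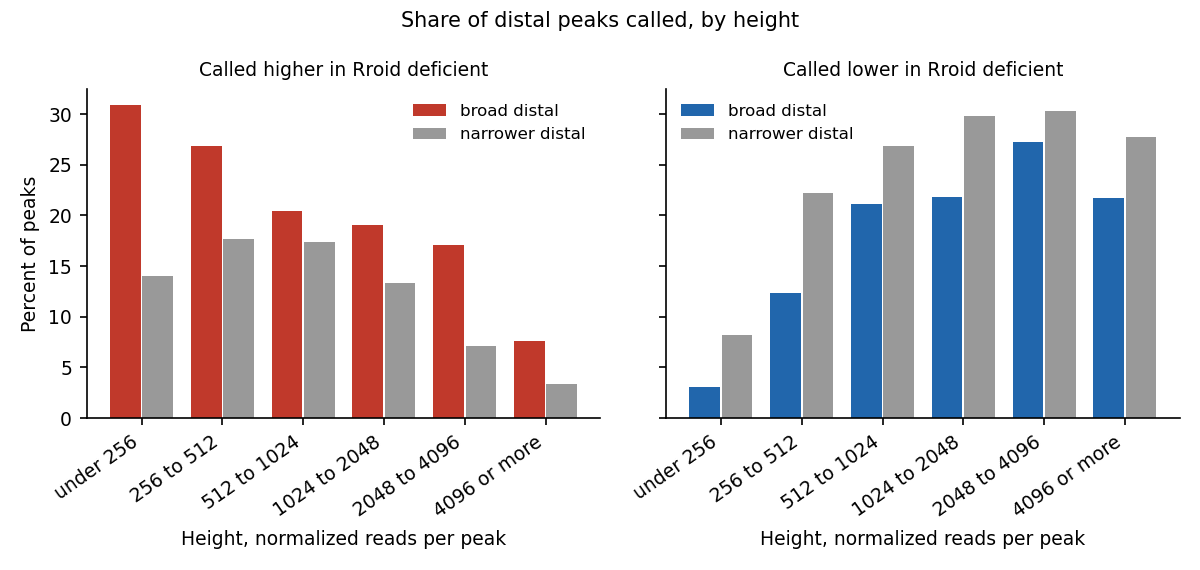
Percent of distal peaks called higher (left) or lower (right) in Rroid-deficient cells, by range of normalized reads per peak. Coloured bars are broad distal peaks and grey bars narrower ones, and the broad bar for higher calls exceeds the grey bar in every range (30.9% of 97 broad peaks below 256 reads). Heights are not equal in that lowest range, where broad peaks start at 105 normalized reads and narrower ones at 11.1.

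The density of reads along the peak separated the libraries as well as the calls. In the lowest quartile by reads per kb (38.7 to 157), 65 of 212 broad distal peaks were higher and 17 lower. In the highest quartile (774 to 15882 per kb), 25 of 212 were higher and 54 lower. In the lowest quartile the median deviation from the wildtype mean was 0.33 in library 4 and 0.27 in library 6, but -0.04 in library 5. In the highest quartile these medians were -0.16, -0.09 and 0.04. Libraries 4 and 6 are also the shallowest, and the part of depth in this pattern was not tested. Library 5 lay above all wildtype libraries at 162 of the 172 higher peaks and below all of them at 159 of the 161 lower peaks, although it is itself 1 of the libraries behind the calls.

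**Figure D3:**
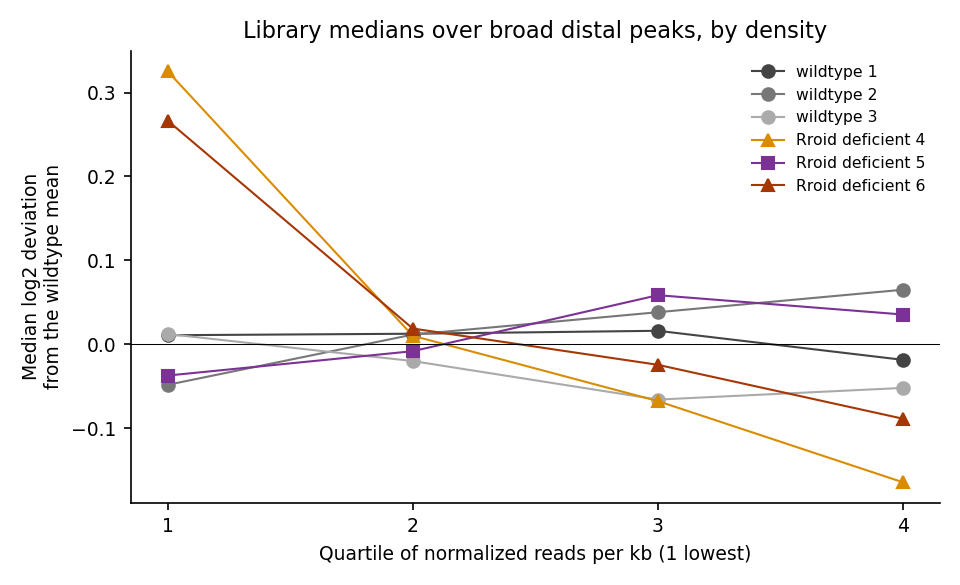
Median log2 deviation from the wildtype mean over broad distal peaks in each library, by quartile of normalized reads per kb (1 is lowest). Rroid-deficient libraries 4 and 6 start at 0.33 and 0.27 and fall below 0 in the highest quartile, while library 5 stays between -0.04 and 0.06.

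Among the largest rises, an intronic peak whose nearest start site, 51.3 kb away, was that of Ykt6 (chr11:5904925-5909185 in mm9, the build of all coordinates here) held 692, 633 and 687 normalized reads in wildtype and 2094, 2544 and 2146 in Rroid-deficient libraries. The groups were far apart, with a 3.37-fold higher mean (log2 fold change 1.75, SE 0.10, limma adjusted p = 6.2e-09). Ykt6 encodes a SNARE protein of vesicle fusion. The authors' detailed annotation places the peak in an LTR repeat of the endogenous retrovirus class ERV1, whose copies elsewhere in the genome can make the placement of reads uncertain. A second broad distal peak assigned to Ykt6 passed no test, with means of 4611 ± 429.5 and 4643 ± 529 (SD, n = 3 per genotype).

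Kbtbd11, a gene of the BTB and kelch family, was nearest to 3 broad distal peaks, and all rose. The strongest (chr8:14995858-14998468) was annotated to an intron of a different transcript from the other Kbtbd11 peaks. It held 561, 524 and 494 normalized reads in wildtype and 1810.2, 1996 and 1933 in Rroid-deficient libraries. Its log2 fold change was 1.86 (SE 0.10, adjusted p = 2.63e-09), and those of the other two were 1.26 and 0.71. All 3 kept their call in every fit that left out 1 library.

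Itgb3 encodes integrin beta 3, a subunit of adhesion receptors. A peak 54.7 kb from its start (chr11:104522259-104525782) held 499.5, 344 and 226 normalized reads in wildtype and 1305, 1638 and 1534 in Rroid-deficient libraries. All Rroid-deficient values exceeded all wildtype ones (4.19-fold, log2 fold change 2.13, SE 0.20, adjusted p = 6.23e-07). A second Itgb3 peak rose by a log2 fold change of 0.39 (adjusted p = 0.0243) and lost its call without library 3, 5 or 6, with adjusted p up to 0.128.

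Crhbp encodes a protein that binds corticotropin-releasing hormone. Its peak (chr13:96219100-96222070) held 207, 150.4 and 161 normalized reads in wildtype and 769, 696 and 669 in Rroid-deficient libraries, a 4.11-fold rise (adjusted p = 4.45e-08). A peak 37.4 kb from Vcpkmt, a lysine methyltransferase gene, was nearly closed in wildtype, at 33.8, 56.3 and 49.8 normalized reads. In Rroid-deficient libraries it held 236, 207 and 225 (log2 fold change 2.26, adjusted p = 1.43e-06). Both peaks separated the genotypes with no overlap. Which libraries set the listing and width of a consensus peak is not given in the sources used here. Sites low in wildtype, as here and in the Speer cluster described next, may owe both to the Rroid-deficient libraries.

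The other large rises formed a single cluster on chromosome 5, at peaks near Gm10354, Gm17019 and Speer4d, members of or neighbours to the repeated Speer gene family. The peak near Gm17019 (chr5:15050861-15054902) held 78.4, 61.3 and 121 normalized reads in wildtype and 659, 228 and 546 in Rroid-deficient libraries. Library 5 lay well below the other two Rroid-deficient libraries there but above wildtype. All 5 broad distal peaks of this cluster were higher, and so were all 30 consensus peaks in it, so these are not separate examples. With library 5 alone, the log2 fold change near Gm17019 was 1.43 rather than 2.36. Near-identical copies in this family make the placement of reads uncertain.

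The largest fall, near Gm2176 on chromosome 18, went from 2009.7, 1858 and 1741 normalized reads in wildtype to 542, 711 and 654 (log2 fold change -1.56, SE 0.11, adjusted p = 4.74e-08). A peak 34.9 kb from Adrb1, the beta-1 adrenergic receptor gene (chr19:56830459-56833091), held 4527, 4275 and 3954 in wildtype and 1305, 1606 and 1668 in Rroid-deficient libraries. This was 35.9% of the wildtype mean (log2 fold change -1.48, SE 0.10, adjusted p = 2.39e-08). A peak 156 kb from Qdpr, which encodes an enzyme that recycles tetrahydrobiopterin, held 1055, 1209 and 1388 normalized reads in wildtype and 463, 389 and 464 in Rroid-deficient libraries (adjusted p = 2.44e-07). At these 3 sites the highest Rroid-deficient value lay below the lowest wildtype value.

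Both broad distal peaks nearest to Mir29b-1, whose seed is printed above, fell. The peak 51.0 kb away (chr6:31062715-31065533) held 3296, 3695 and 3423 normalized reads in wildtype and 1429.5, 1495 and 1632 in Rroid-deficient libraries (log2 fold change -1.19, SE 0.09, adjusted p = 6.25e-08). The peak 16.5 kb away (chr6:31027341-31031792) went from 2735, 2573 and 2416 to 1322, 1533 and 1548 (log2 fold change -0.81, adjusted p = 7.35e-06). At another microRNA gene of lymphocytes, Mir142, the broad distal peak had means of 8204 ± 802 and 8200.1 ± 852 (adjusted p = 0.994). It was picked for contrast after its values were seen.

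Smaller falls among the 8 largest were found near Fgfbp1, Plscr4 and Sel1l. The Fgfbp1 peak went from a mean of 1078 ± 26.3 to 573 ± 75.3, and the Plscr4 peak, near a phospholipid scramblase gene, from 687 ± 82.2 to 369 ± 39.8 (SD, n = 3). The peak 496 kb from Sel1l, a gene of protein quality control in the endoplasmic reticulum, went from 192 ± 36.5 to 99.9 ± 30.8 normalized reads. All 16 peaks with the largest changes kept their call in every fit that left out 1 library.

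**Figure D4:**
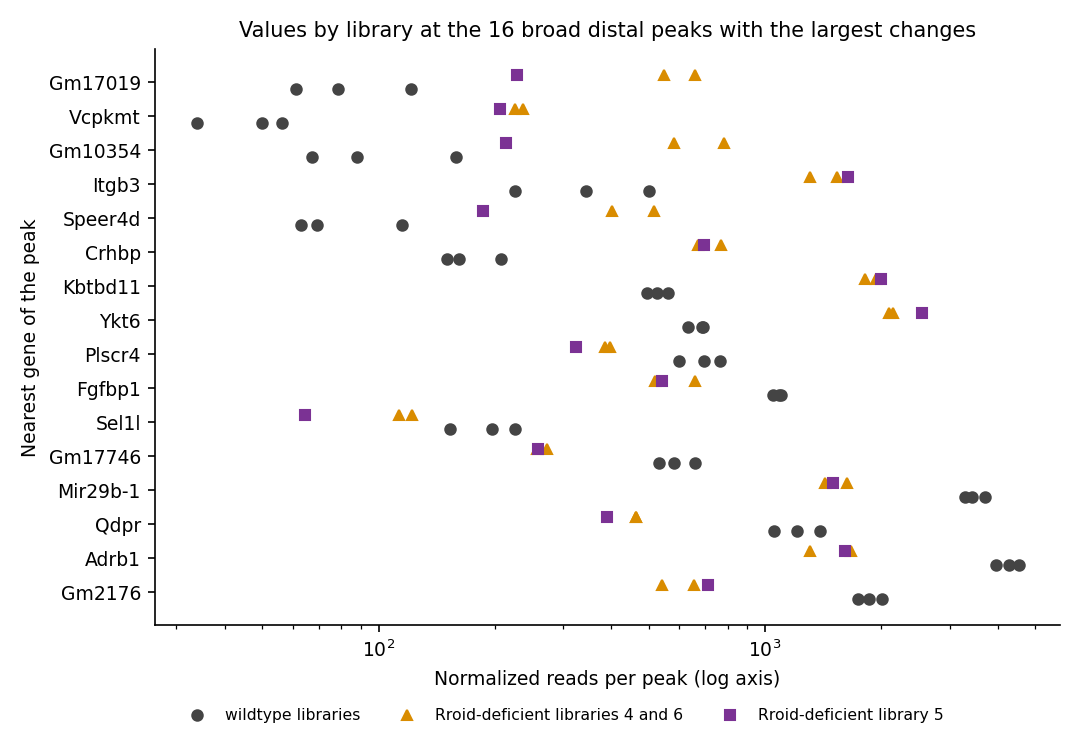
Normalized reads in each library (log axis) at the 16 broad distal peaks with the 8 largest rises and 8 largest falls, 1 line per peak named by its nearest gene. Circles are wildtype, triangles Rroid-deficient libraries 4 and 6 and squares library 5, and the genotypes do not overlap at any of the 16 peaks.

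The 3 broad distal peaks within 500 kb of the Id2 start site lay at 68.8, 132 and 173 kb from it, between Id2 and the Rroid locus, and all fell. Their nearest annotated gene is Gm17746. The one closest to the Rroid locus (chr12:25952467-25955330) held 532, 659 and 581 normalized reads in wildtype and 257, 258 and 273 in Rroid-deficient libraries, 44.5% of the wildtype mean (log2 fold change -1.16, SE 0.13, adjusted p = 5.54e-06). The other two had log2 fold changes of -0.51 (chr12:25911572-25914174) and -0.45 (chr12:25848357-25851210), with adjusted p of 0.000795 and 0.00126. Fold changes were thus smaller at the peaks closer to Id2. With library 5 as the only Rroid-deficient library, the peak nearest to Id2 lost its call (adjusted p = 0.0952).

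Of 141 genes on 6 lymphocyte lists, 34 were the nearest gene of 51 broad distal peaks. That is 6.02% of broad distal peaks, against 4.49% of narrower distal peaks of equal value. Of the 51 peaks 7 (13.7%) were higher and 17 (33.3%) lower, where 20.3% and 19.0% of all broad distal peaks and 13.8% and 12.1% of all peaks were called. Their median log2 fold change was -0.13, while over all broad distal peaks it was 0.003. Loess scaling and scaling to total reads each gave 11 higher and 13 lower. Without library 2, without library 4 or without library 6 there were 11 lower, and with library 5 as the only Rroid-deficient library 6 were higher and 6 lower. The shares called were not matched on peak value. Over all broad distal peaks, lower calls were 3.09% below 256 normalized reads, 27.2% between 2048 and 4096 and 21.7% above. Higher calls in the same ranges were 30.9%, 17.1% and 7.61%. The lists hold NK and innate lymphoid transcription factors, effector and maturation genes, NK receptors, cytokine signalling, chemokine and trafficking receptors, and progenitor or T-cell genes.

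Transcription factor genes held 16 broad distal peaks, of which 3 were higher, 4 lower and 9 not called (median -0.13). Of all broad distal peaks 20.3% were higher and 19.0% lower, so 3 and 4 of 16 are near those shares. Loess scaling gave 4 higher and 4 lower (median -0.04), and scaling to total reads 4 higher and 3 lower (median -0.07). Without library 5 or without library 6, 1 was higher, and without library 2, 2 were lower. With library 5 alone, 2 were higher and 2 lower. The peak 6.78 kb from the start of Tcf7 (chr11:52087316-52090627) held 1135, 1551 and 1055 normalized reads in wildtype and 2748, 3204 and 2717 in Rroid-deficient libraries. The genotypes did not overlap (2.32-fold, log2 fold change 1.23, SE 0.12, adjusted p = 1.58e-06). Tcf7 encodes TCF-1, a factor of early lymphoid and memory-like cells. A peak 9.18 kb upstream of Tbx21, the gene of T-bet, which drives NK maturation, fell from 2106, 2157 and 1857 to 1037, 1636 and 1373 (log2 fold change -0.62, adjusted p = 0.00195), and lost its call with library 5 alone (adjusted p = 0.165). The second Tbx21 peak did not pass the test (-0.23, adjusted p = 0.254).

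Runx3, a Runt factor of cytotoxic lymphocytes, had 1 lower peak (means 625 ± 109 and 414 ± 33.9, adjusted p = 0.00472) and 1 without a call. Runx1 and Tox each had 1 lower peak and Maf and Irf8 each 1 higher peak, and all 4 of these calls were lost when single libraries were left out, with adjusted p up to 0.157, 0.0616, 0.115 and 0.105. The peaks near Eomes, Bach2 and Klf2 passed no test. The Eomes peak had means of 3284 ± 410.2 and 3073 ± 252 (log2 fold change -0.09). The highest of these peaks, near Bach2, a repressor of effector programmes, had means of 9508 ± 431 and 8700.2 ± 529 (log2 fold change -0.13, adjusted p = 0.206).

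NK receptor genes held 6 broad distal peaks, of which 3 were lower and none higher (median -0.36). Of all broad distal peaks, 19.0% were lower and 20.3% higher. The 3 lower receptor peaks all lie around Klrb1c, the gene of NK1.1, which was used to sort the cells. The peak annotated to a 3' UTR there (chr6:128726891-128730879) held 1115, 1409.8 and 1093 normalized reads in wildtype and 719, 689 and 739 in Rroid-deficient libraries (log2 fold change -0.74, SE 0.11, adjusted p = 0.000119). The peak on the other side of the gene (chr6:128747853-128751567) went from 5077, 5655 and 5186 to 3647, 4265 and 3987 (log2 fold change -0.42, adjusted p = 0.00104). The third, 5397 bp wide, had a log2 fold change of -0.43 (adjusted p = 0.00225). With library 5 alone only the first kept its call, and the others had adjusted p of 0.101 and 0.157. Peaks near Ncr1, the gene of NKp46, Tyrobp, which encodes the adaptor DAP12, and Klrk1, which encodes NKG2D, had log2 fold changes of -0.30, -0.27 and -0.08 and passed no test (adjusted p = 0.0639, 0.0791 and 0.591).

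Beside the 19.0% lower and 20.3% higher of all broad distal peaks, effector and maturation genes held 7, with 2 lower and none higher (median -0.11). Only 1 was lower with loess scaling or without library 2, 3, 4 or 6, and none with library 5 alone. At Ccl3, a chemokine gene, the peak (chr11:83452331-83455185) went from 5625, 6281 and 5036 normalized reads to 3757, 4849 and 4096 (log2 fold change -0.42, adjusted p = 0.0047). It lost its call with library 5 alone (adjusted p = 0.315). The peak of Fasl, which encodes the ligand of a death receptor, went from 6171, 6253 and 6261 to 4873, 5663 and 5207 (log2 fold change -0.25, adjusted p = 0.0224). Its call was lost without library 2, 3, 4 or 6 (adjusted p up to 0.114) and with loess scaling. The peaks near Klrg1 and Xcl1 had log2 fold changes between -0.16 and -0.03 and passed no test.

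Cytokine signalling genes held 12 broad distal peaks, 3 higher and 4 lower (median -0.10), beside 20.3% and 19.0% of all broad distal peaks. Loess scaling gave 3 higher and 1 lower (median -0.02), and scaling to total reads or to DESeq2's size factors 3 higher and 2 lower. Both Il6st peaks rose. Il6st encodes gp130, the shared receptor chain of the interleukin-6 family. Its stronger peak (chr13:113214594-113218201) held 1319, 1050.2 and 1040.2 normalized reads in wildtype and 1750.5, 1814 and 1711 in Rroid-deficient libraries, above every wildtype value (log2 fold change 0.64, SE 0.10, adjusted p = 0.00023). At Il2rb, whose product carries the interleukin-15 signal on which NK cells depend, a peak 7.24 kb upstream rose (means 1036 ± 137 and 1483 ± 224, adjusted p = 0.00451). The second Il2rb peak, 16.5 kb upstream, passed no test, with means of 6264 ± 758 and 5927 ± 789.

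Ifngr1 encodes the ligand-binding chain of the interferon gamma receptor, and 4 broad distal peaks lay upstream of it. The peak at 76.1 kb (chr10:19234106-19237253) held 659, 729 and 749 normalized reads in wildtype and 459, 492 and 533 in Rroid-deficient libraries (log2 fold change -0.53, SE 0.12, adjusted p = 0.00279). The peaks at 86.8 and 96.4 kb had log2 fold changes of -0.24 and -0.26, with adjusted p of 0.0412 and 0.0497. Both lost their call without library 2, 3, 4 or 6 (adjusted p up to 0.185 and 0.245) and in DESeq2. The lower call at Il18r1 was likewise lost (adjusted p up to 0.163). Without library 2, without library 4 or without library 6 the list had 1 lower peak in place of 4, without library 3 it had 2, and with library 5 alone its median turned to 0.07.

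Chemokine and trafficking genes held 8 broad distal peaks, 3 lower and none higher, beside 19.0% and 20.3% of all broad distal peaks. The list had 3 higher and 3 lower under loess scaling and 3 higher and 2 lower when scaled to total reads. The peak 86.2 kb from Rgs2, a regulator of G-protein signalling (chr1:145763318-145766892), went from 1621, 1977 and 2274 normalized reads to 1078, 997 and 1263 (log2 fold change -0.81, SE 0.12, adjusted p = 0.000101). At Itga2, the gene of CD49b, an NK-cell integrin, 2 of 3 peaks fell, by log2 fold changes of -0.41 (adjusted p = 0.00222) and -0.33 (adjusted p = 0.0364). The weaker call was lost without library 1, 3, 4 or 6 (adjusted p up to 0.152), and both were lost with library 5 alone. The peaks near Cd69, Cxcr4 and Cd44 passed no test.

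Myb, a factor of haematopoietic progenitors, had the only broad distal peaks of the progenitor and T-cell list, and they moved in opposite directions. The peak 27.0 kb upstream (chr10:20906404-20909262) rose from 500.4, 531 and 564 normalized reads to 813, 966 and 898 (log2 fold change 0.74, adjusted p = 0.00011). The peak 43.6 kb upstream (chr10:20922952-20925771) fell from 2813, 2731 and 2584 to 1598, 2030.5 and 1888 (log2 fold change -0.57, adjusted p = 0.000339). Both kept their calls in every fit that left out 1 library.

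**Figure D5:**
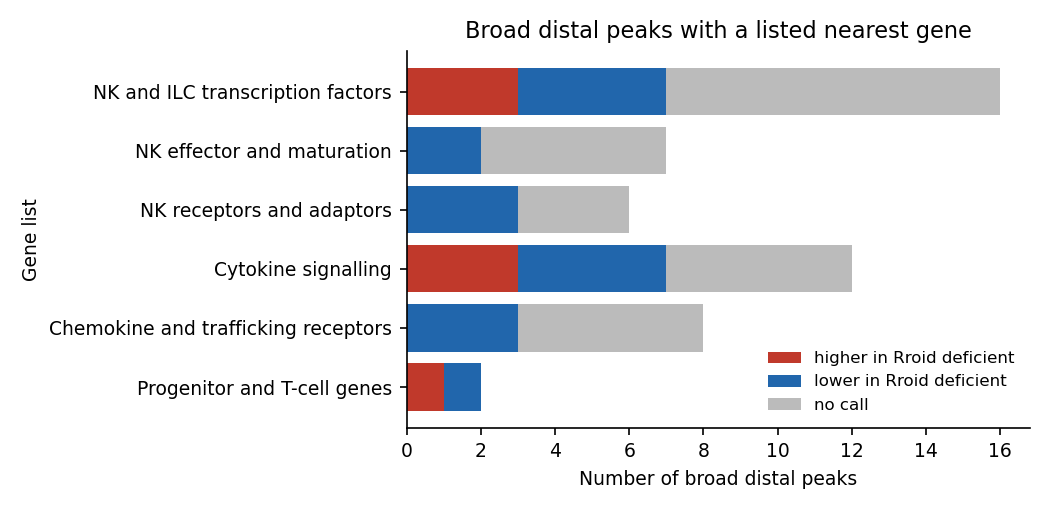
Number of broad distal peaks whose nearest gene is on each of 6 gene lists, split into called higher (red), called lower (blue) and not called (grey) in Rroid-deficient cells. Receptor, effector and trafficking lists, with only 6, 7 and 8 peaks, have no higher peak and 3, 2 and 3 lower ones. All 3 lower receptor peaks lie around Klrb1c, and 2 of the lower trafficking peaks are nearest to Itga2. Of all broad distal peaks 20.3% were higher and 19.0% lower. The trafficking list gains 3 higher peaks under loess scaling.

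In all, 95 genes were nearest to 2 or more broad distal peaks, which made 215 peaks. At 20 of these genes calls were only higher, at 29 only lower, at 3 both (Klhl25, Myb and Zmynd8) and at 43 there was none. No such counts over other peaks are given, so agreement within a gene cannot be set against a background. At least 2 higher peaks were found at 6 genes (Gm10354, Kbtbd11, Septin9, Il6st, Itgb3 and Mir101c). Of these, Gm10354 lies in the Speer cluster, and the genotypes overlapped at both Mir101c peaks. At least 2 lower peaks were found at 12 genes, among them Ifngr1, Gm17746, Itga2, Klrb1c, Sla, Ube2e3, Ctsd, Sytl2 and Mir29b-1. The 3 Septin9 peaks, at a gene of the septin cytoskeleton, had log2 fold changes of 0.84, 0.36 and 0.37 (adjusted p = 0.000769, 0.0177 and 0.00884). The second lost its call without library 3, 5 or 6 (adjusted p up to 0.0913). Sla encodes an adaptor that damps antigen-receptor signalling, and 2 of its 3 peaks fell, by log2 fold changes of -0.83 and -0.55 (adjusted p = 5.26e-05 and 0.00124). Septin9 and Sla were picked after their values were seen.

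The genes with the most broad distal peaks were Fam208a, Ifngr1 and Klhl25, with 4 each. At Fam208a, a gene of heterochromatin silencing, 3 of 4 passed no test, and the log2 fold change of 0.32 at the other lost its call in 5 of the 6 fits that left out 1 library (adjusted p up to 0.154). At Klhl25 a lower peak (-0.64, adjusted p = 0.00324) stood beside a higher one (0.25, adjusted p = 0.0371), and the latter lost its call in each such fit, with adjusted p up to 0.107. Of the 19 genes with 3 broad distal peaks, Chd7, Gm5069, Hnf4g, Mbnl1 and Trpm1 had no call. Fyn, which encodes a Src-family kinase, had 1 lower peak, with a mean of 3994 ± 193 in wildtype and 2874 ± 239.5 in Rroid-deficient cells (log2 fold change -0.48, adjusted p = 0.00051).

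The surrounding peaks were not used to choose the broad distal peaks. Within 20 kb of the 172 higher broad distal peaks, 188 of 470 other peaks were higher and 17 lower. Within 20 kb of the 161 lower ones, 150 of 413 were lower and 23 higher. Around those without a call the shares were 13.7% higher and 14.9% lower of 1429. With library 5 alone the counts were 117 higher and 4 lower around higher peaks, and 13 higher and 77 lower around lower peaks. The peaks share libraries, so these are counts with no test.

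Start sites of the nearest genes were read the same way. Among peaks within 1 kb of the start of the gene nearest to a higher broad distal peak, 28 of 120 were higher and 13 lower. For the lower broad distal peaks, 37 of 114 start-site peaks were lower and 2 higher. For broad distal peaks without a call, 30 of 352 start-site peaks were higher and 54 lower. Over all 11847 start-site peaks, 10.4% were higher and 8.73% lower. With library 5 alone, 21 were higher and none lower beside higher peaks, and 12 lower and 1 higher beside lower peaks. A broad distal peak had a median of 7 peaks within 50 kb, as did narrower distal peaks of equal value, and 39.4% against 32.1% had a broad peak within that distance.

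Calls were spread over distance and width. Between 5 and 10 kb from the start site 28 of 123 peaks were higher and 22 lower, and beyond 100 kb 24 of 106 were higher and 20 lower. Among the 64 widest peaks 9 were higher and 11 lower. By chromosome the split was less even: on chromosome 6, which carries the Klrb1c and Mir29b-1 peaks, 4 of 44 were higher and 16 lower, and on chromosome 3, 7 of 30 were higher and 1 lower. On chromosome 11, with Ykt6, Tcf7, Itgb3 and Septin9, 18 of 60 were higher and 9 lower. Of 36 peaks annotated to LINE repeats, 12 were higher and 3 lower, while of 80 annotated to SINE repeats 14 were higher and 15 lower. These bins were set beside each other after their values were seen. Shares over all peaks of the same chromosome or repeat class are not given, so these splits cannot be called particular to broad distal peaks. The LINE peaks include a peak of the Speer cluster, near Gm10354.

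The widest and the highest peaks were partly repeat-like. The highest, 5433 bp wide and 1197 kb from Lrrc4c, held 73750.0, 66836 and 88751 normalized reads in wildtype and 113783, 70746 and 103860.0 in Rroid-deficient libraries, and passed no test. Library 5 lay inside the wildtype range. The next, near Esp38 and 5938 bp wide, fell from a mean of 62973 ± 10471 to 46897 ± 4098 (adjusted p = 0.00372). Near Mir101c, at the start of chromosome 9, 2 peaks were called higher (log2 fold changes 0.55 and 0.56), but library 5 overlapped wildtype at both and the calls were lost without library 2, 4 or 6 (adjusted p up to 0.0935). The widest peak, 6351 bp with Gm5069 as its nearest gene, had means of 5972 ± 195 and 6467 ± 282 (adjusted p = 0.266), and the 5863 bp peak near Klf2 means of 7295 ± 204 and 6479 ± 705 (adjusted p = 0.123). The high peak near Cic, a transcriptional repressor gene, had a log2 fold change of -0.23 (adjusted p = 0.025), which was lost without library 2, 3, 4 or 6 (up to 0.121). Leaving out 24 peaks (those at chromosome starts, in satellites and in the Speer cluster, and the highest 2, near Lrrc4c and Esp38) left 823. Of the 823, 165 were higher and 159 lower, and the set left out was chosen after its values were seen.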

How the data were processed

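Genome build mm9 and HOMER, BWA, MACS2 2.1.0, DiffBind, Trimmomatic 0.32, bcl2fastq 2.16.0 and R 3.1.1 are named in the submitters' processing notes, with no role or order. Whether reads were shifted for the transposase or deduplicated is not given in the sources used here. Deposited by the authors was 1 normalized signal value per consensus peak and library, with annotation. Each value was a whole number of reads (tolerance 0.01) divided by a library factor, and this held for 100% of values in every library. The recovered reads entered only alternatives. Of all peaks, edgeR 4.0.16 called 7080 higher and 6246 lower, and DESeq2 1.42.0 called 7009 and 6167, against 7126 and 6257 in the test used. Calls came from limma 3.58.1 (trend on, R 4.3.3) on log2(value + 1) over all peaks, without covariates or a low-value filter. Widths and distances are as deposited, and 83 date-like gene symbols were restored by gene identifier. Counting error does not cover technical variation between libraries.

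The broad distal peaks and the gene lists were chosen with earlier results of these data known. Named peaks were the 8 largest rises and 8 largest falls (1 per gene, groups not overlapping), the 5 widest, the 5 highest, the 5 genes with the most peaks (ties in alphabetical order), up to 2 called and the highest uncalled peak per list, peaks within 500 kb of Id2, and those at the limits. Other names, and further peaks of the same genes, were picked after their values were seen. Results were recomputed with other scalings, pseudocounts, limits and matchings, and without each library. A few items are not reported here.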

Additional observations from a re-analysis of the deposited data

How the results depend on the processing

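No paired analysis was possible because the Rroid-deficient columns carry numbers that match no sample title, so a fit with a replicate block was not run. Leaving out 1 library at a time gave 131 to 185 higher and 107 to 179 lower broad distal peaks, lowest without library 6 and highest without library 5. The difference from narrower distal peaks of equal value then ranged from 5.28 to 10.2 percentage points for higher calls, from -8.96 to -4.59 for lower calls and from -1.29 to 2.15 for either call, and from 0.110 to 0.152 for the median log2 fold change. With all libraries these values were 7.46, -7.33, 0.129 and 0.13. With library 5 as the only Rroid-deficient library, a setting chosen after seeing the data whose spread comes from the wildtype libraries, they were 108 higher and 75 lower peaks, 3.74 and -1.35 points and a median difference of 0.082. An adjusted p limit of 0.01 left 95 lower peaks. Scaling to total reads gave 3.45 points for either call, and loess scaling 4.44, with 11.1 for higher calls. Matching on reads per kb gave 4.54 for either call, -1.36 for lower calls and a median difference of 0.080. Matching on the wildtype value, where only the wildtype side sets the height, gave 11.2 and -11.9 for higher and lower calls. A width limit of 2000 bp gave -4.60 for lower calls. The cause of these changes was not tested. The sign of the higher and lower differences was the same in each of these settings. For lower calls the difference nearly vanished with matching on reads per kb (-1.36 points), and it was about as small with library 5 alone. Of 61 named peaks, edgeR kept 61 on the same side of the limit, DESeq2 58 and library 5 alone 46, and no named peak that was called changed its sign. Depth limits the lowest peaks most, where 38 reads stood behind a value.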
